A study of Mus musculus with 16 samples.

Results

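The clustered, replication-dependent histone genes were followed across 16 RNA libraries of mouse embryonic stem cells (ESCs). The members are the 67 genes, of 26127 in the deposited table, whose symbol starts with Hist1h, Hist2h, Hist3h or Hist4h. Each gene entered by its name and not by a measured value, but the list was chosen with earlier results of these data known. The members comprise 6 H1, 19 H2A, 18 H2B, 11 H3 and 13 H4 genes. Of these, 55 carry a Hist1 symbol (chromosome 13), 9 a Hist2 symbol (chromosome 3), 2 a Hist3 symbol (chromosome 11) and 1 a Hist4 symbol (chromosome 6). All 67 are annotated as protein coding and 61 have a single exon.

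The libraries form 3 groups, all labelled as ESCs of the E14 background: wildtype (WT, 8 libraries), Dnmt1-/- (Dnmt1 KO, 4 libraries) and Dicer/Dnmt1 -/- (Dicer/Dnmt1 KO, 4 libraries). The methods of the study describe a Dnmt1 loxP/loxP parent line of the C57BL/6 background, deletion by a Cre recombinase induced with tamoxifen, double knockouts derived from single-cell colonies after CRISPR/Cas9 targeting of Dicer in that line, some with a conditional and some with a constitutive loss of Dicer, and culture in serum and LIF with or without feeder cells, and this background differs from the labelled one. Which of the Dicer designs these libraries came from is not given by the labels. Each library carries a number (1 to 4 in WT, 1 and 2 in the knockouts) and a letter, A or B, whose meaning the labels do not give. Nothing states that these libraries came from separate cultures, so the p-values measure the spread between the libraries, which may be partly technical.

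Replication-dependent histone genes supply the histones that package newly copied DNA, and their transcripts rise when cells enter S phase. Their mRNAs end in a conserved stem-loop in place of a poly(A) tail, and the stem-loop binding protein, encoded by Slbp, recognises it to direct 3' end cutting, export, translation and decay. H2A, H2B, H3 and H4 form the nucleosome core and H1 binds the linker DNA. In ESCs, which spend a large share of their cycle in S phase, these mRNAs are abundant, and libraries made from total RNA depleted of ribosomal RNA, as here, can hold them although they lack the tail.

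The stem-loop is printed first because it is the shared feature that defines these mRNAs. A match was a stem of 6 base pairs that begins with GG around a loop of 4 bases that begins with TT, searched on the gene's strand within 200 bases after the annotated coding sequence. It was found for 58 of the 67 members (86.6%) and for 16 of 22313 other protein-coding genes (0.0717%). In the sequences, from the NCBIM37 genome with the 16 bases of the stem-loop in capitals, 36 members shared the form of Hist1h1a, 9 that of Hist1h3e, 8 that of Hist1h4k, 2 that of Hist1h4i, 2 that of Hist1h4j and 1 that of Hist2h2ac.
Hist1h1a (chr13:23856256-23856281, plus strand): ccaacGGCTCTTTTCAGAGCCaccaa
Hist1h3e (chr13:23653767-23653792, minus strand): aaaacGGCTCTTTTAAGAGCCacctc
Hist1h4k (chr13:21842014-21842039, minus strand): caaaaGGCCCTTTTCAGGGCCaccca
Hist1h4i (chr13:22132830-22132855, minus strand): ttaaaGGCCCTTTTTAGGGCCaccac
Hist1h4j (chr13:21827301-21827326, plus strand): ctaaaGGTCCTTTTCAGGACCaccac
Hist2h2ac (chr3:96024336-96024361, minus strand): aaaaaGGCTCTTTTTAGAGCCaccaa

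The forms set H4 apart from the other classes. The 12 H4 genes with a match carried only the forms of Hist1h4k, Hist1h4i and Hist1h4j, and no member of another class carried these. The forms of Hist1h1a and Hist1h3e were each shared by H1, H2A, H2B and H3 genes. The testis-type gene Hist1h2aa shared the form of Hist1h1a, and Hist1h2ba and Hist1h1t, also testis-type, shared that of Hist1h3e. No match was found for Hist2h2be, Hist2h2bb, Hist1h2an, Hist1h2bp, Hist1h2bq, Hist1h2br, Hist1h3g, Hist1h4a and Hist1h2al, and this says only that these letters are not in this window.

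Upstream sequence was available from RefSeq (build GRCm38.p6) for 60 of the 67 members. In the 300 bases from 250 before to 50 after the annotated start, CCAAT was present on either strand in 85.0% of the members' promoters and 37.4% of all 32851 promoters, and TATAAA on either strand in 58.3% and 13.6%. The median number of CpG dinucleotides was 11 for the members and 7 for all promoters. The 150 bases before the start are shown for 4 members described below, with both motifs and their reverse complements in capitals: Hist1h2aa, which rose in Dnmt1 KO, Hist1h1t, which fell in Dicer/Dnmt1 KO against both other groups, Hist4h4, which fell most in both knockouts against WT, and Hist1h3e, the H3 gene with the highest level per kilobase.
Hist1h2aa (chr13:23934287-23934436, plus strand): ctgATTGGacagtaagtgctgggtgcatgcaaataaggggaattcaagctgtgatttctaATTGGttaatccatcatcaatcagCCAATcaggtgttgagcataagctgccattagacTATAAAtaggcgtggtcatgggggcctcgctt
Hist1h1t (chr13:23695661-23695810, plus strand): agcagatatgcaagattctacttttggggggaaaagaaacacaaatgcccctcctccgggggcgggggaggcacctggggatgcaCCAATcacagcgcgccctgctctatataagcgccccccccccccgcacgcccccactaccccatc
Hist4h4 (chr6:136804432-136804581, minus strand): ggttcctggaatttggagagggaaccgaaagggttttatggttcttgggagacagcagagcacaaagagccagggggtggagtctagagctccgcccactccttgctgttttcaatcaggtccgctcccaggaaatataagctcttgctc
Hist1h3e (chr13:23562386-23562535, minus strand): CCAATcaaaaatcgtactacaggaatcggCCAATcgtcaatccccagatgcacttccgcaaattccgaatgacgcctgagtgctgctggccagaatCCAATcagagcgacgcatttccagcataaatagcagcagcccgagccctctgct
The printed stretch of Hist4h4 held neither motif, that of Hist1h2aa held both, and those of Hist1h1t and Hist1h3e held CCAAT. The matches are a description of the letters and not of bound factors.

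Values are log2 RPM as deposited, that is, reads scaled to the size of the library. The libraries held 31.5 to 52.5 M reads, of which 44.2% to 48.7% fell in genes, and 3 reads corresponded to 0.0571 to 0.0954 RPM. As a check of the labels, Dnmt1 was at 4.35, 4.17, 4.63 and 4.44 log2 RPM in the Dnmt1 KO libraries (1A, 1B, 2A and 2B), 4.49, 4.62, 4.53 and 4.64 in the Dicer/Dnmt1 KO libraries, and 7.40 to 7.66 in WT numbers 1 to 3, but 5.69 and 5.55 in the libraries labelled WT 4A and 4B. These 2 libraries therefore lie between the other WT libraries and the knockouts for this gene. The count of tested members that fell against WT and the members' median are given with and without them. Other results against WT include them unless stated. Dicer1 was at 3.92, 3.83, 3.68 and 4.06 log2 RPM in the Dicer/Dnmt1 KO libraries, below every library of the other groups (4.56 to 5.68). All 12 pluripotency markers were above 1 RPM in every library. In Dnmt1 KO against WT, 4 of them fell (33.3%, beside 17.5% of all tested genes) and none rose (median log2 fold change -0.27). In Dicer/Dnmt1 KO, 2 fell (16.7%, beside 30.1%) and none rose (median -0.16). Of the 14 feeder fibroblast markers, 12 were above 1 RPM in every library and the other 2, Lum and Dcn, held 0 to 7 and 3 to 19 reads. The summed level of the feeder markers was 343 to 818 RPM in WT, 555 to 662 RPM in Dnmt1 KO and 646 to 1046 RPM in Dicer/Dnmt1 KO. Within WT, 4B and 4A were lowest (343 and 396 RPM), and the other WT libraries held 513 to 818 RPM. Of the 12 tested feeder markers, 7 rose and 1 fell in Dnmt1 KO against WT (median log2 fold change 0.67), and 9 rose and 1 fell in Dicer/Dnmt1 KO (median 0.75). The part of either marker list in the results below was not tested.

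Clustered histone genes took up a smaller share of the RNA in both knockouts than in WT. Their summed level was lowest at 4388, median 5303 and highest at 6387 RPM in the 8 WT libraries. It was 4307, 3974, 2811 and 3072 RPM in Dnmt1 KO 1A, 1B, 2A and 2B, and 3030, 3167, 3342 and 3184 RPM in Dicer/Dnmt1 KO 1A, 1B, 2A and 2B. Every knockout library lay below every WT library, although Dnmt1 KO 1A lay only just below WT 1A, and the 2 knockout groups overlapped. As a share of the reads in genes, this was 0.964% to 1.31% in WT, 0.623% to 0.896% in Dnmt1 KO and 0.678% to 0.757% in Dicer/Dnmt1 KO. Fewer cells in S phase and less histone mRNA per cell cannot be told apart in such bulk libraries.

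**Figure D1:**
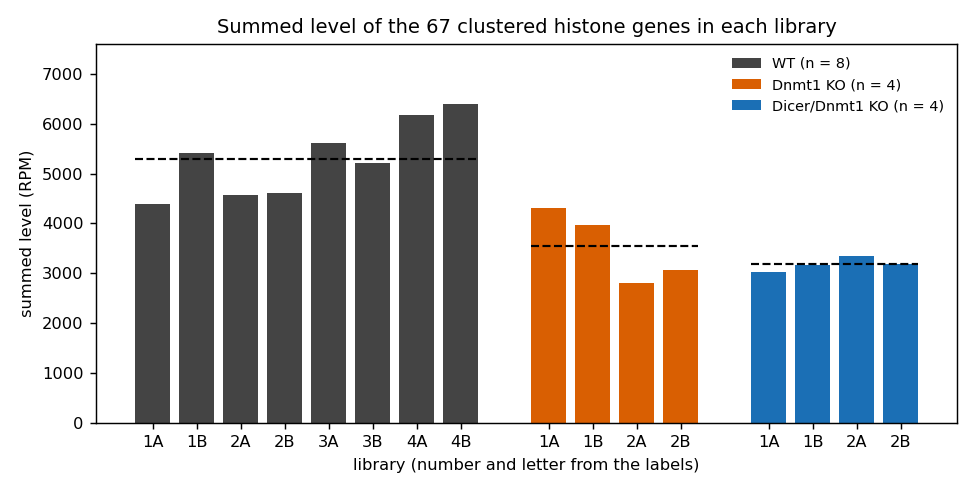
Summed level in RPM (y axis, from 0) of the 67 clustered histone genes in each of the 16 libraries (x axis, number and letter), with the mean of each group as a dashed line. All 8 knockout libraries (2811 to 4307 RPM) lie below the 8 WT libraries (4388 to 6387 RPM).

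The level varied within groups as well. Tested members were higher in WT numbers 3 and 4 than in WT numbers 1 and 2 by a median of 0.43 on the log2 scale, and lower in Dnmt1 KO number 2 than in Dnmt1 KO number 1 by a median of 0.52, where all 62 tested members lay lower in number 2. In Dicer/Dnmt1 KO, number 2 differed from number 1 by a median of 0.16. The make-up of the pool was more even. The H4 genes gave 25.3% to 27.1% of the members' summed RPM in WT, 24.3% to 26.5% in Dnmt1 KO and 24.7% to 25.4% in Dicer/Dnmt1 KO, and the H1 genes 22.8% to 25.7%, 25.3% to 27.7% and 25.3% to 26.8%. The 10 members with the most reads in WT made up 45.2% to 45.9% of the sum in WT, 44.8% to 46.6% in Dnmt1 KO and 45.4% to 47.1% in Dicer/Dnmt1 KO.

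Per kilobase of transcript, H4 genes had the highest median WT level of the 5 classes. On the log2 RPM per kilobase scale the class median was 7.88 for H4 (12 tested genes), 7.40 for H1 (6), 6.61 for H3 (11), 5.60 for H2B (18) and 5.09 for H2A (15). The most abundant members by this measure were Hist1h4k (9.43) and Hist1h4d (9.15) for H4, Hist1h1a (8.86) and Hist1h1b (8.01) for H1, Hist1h3e (8.52) and Hist1h3g (7.63) for H3, Hist1h2bm (8.10) and Hist1h2bn (7.60) for H2B, and Hist1h2ao (7.80) and Hist1h2ak (7.37) for H2A. At the other end stood Hist2h2be, an H2B gene, at -1.41. The measure divides by the annotated length, which was 312 bases for Hist1h4k and 3821 bases for Hist1h1d. For some members the annotated span leaves out the stem-loop, for example Hist4h4, Hist1h4k, Hist1h2bn and Hist1h2aa. How many members this holds for was not counted. How far the order of the classes follows these lengths was not tested.

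Of the 67 members, 62 were above 1 RPM in at least 4 libraries and were tested, 59 of them above 1 RPM in every library, and none was tested through 1 group alone. The 5 untested members were Hist2h2aa2 (0 to 21 reads per library), Hist2h2aa1 (3 to 36), Hist1h4m (0 to 12), Hist1h2ap (0 to 5) and Hist1h2al (0 to 11). For Hist2h2aa2, Hist2h2aa1 and Hist1h2ap, 0% of the 100-base windows of the transcript occur at only 1 place in the genome, so reads there could be discarded by the mapping filter. The same share of 0% held for 3 tested members, Hist1h2ao, Hist1h2bq and Hist1h2br. Hist1h2ao and Hist1h2ap are both 519 bases long, and while Hist1h2ao held 1778 to 5943 reads per library Hist1h2ap held 0 to 5, so how reads were divided between these copies is uncertain. In addition, Hist3h2a overlaps Trim17 and Hist1h2be overlaps Gm11398 on the same strand, Hist2h2aa1 and Hist2h3c1 overlap each other, and Hist2h2ab and Hist1h4b overlap a gene on the other strand.

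The comparison of Dnmt1 KO with WT asks how these genes stand when the enzyme that maintains DNA methylation is lost. With limma across all 12892 tested genes and a Benjamini-Hochberg (BH) adjusted p under 0.05, 44 of the 62 tested members (71.0%) fell in Dnmt1 KO, 1 rose and 17 did not pass, beside 17.5% of all tested genes that fell and 23.5% that rose. The median log2 fold change of the members was -0.60, beside 0.04 over all tested genes, and 59 of 62 members lay below 0. In 14 members every Dnmt1 KO library was below every WT library (8.43% of all tested genes met this). None of the 44 fell by 2-fold or more, beside 1.92% of all tested genes that did. Without the 2 libraries labelled WT number 4, 38 members fell (beside 20.4% of all tested genes) and the members' median was -0.49.

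In Dnmt1 KO, the falls were spread over the core histone classes. H4 genes fell in 10 of 12 cases (median log2 fold change -0.67), H3 genes in 10 of 11 (-0.62), H2B genes in 13 of 18 (-0.55), H2A genes in 8 of 15 (-0.53) and H1 genes in 3 of 6 (-0.36). By cluster, 37 of 52 tested Hist1 genes fell, 4 of 7 Hist2 genes, both Hist3 genes and the Hist4 gene.

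Hist4h4, the single H4 gene outside the larger clusters (chr6:136752589-136752900, NCBIM37), was among the members that fell most. It was at 5.56 to 6.30 log2 RPM in WT (median 6.04), 5.66, 5.16, 4.49 and 4.74 in Dnmt1 KO, and 4.73, 4.73, 4.85 and 4.72 in Dicer/Dnmt1 KO. Dnmt1 KO 1A overlapped the WT range and the other knockout libraries lay below it. The log2 fold change was -0.98 ± 0.18 (SE, n = 4 and 8, limma adjusted p = 0.00027) in Dnmt1 KO and -1.24 ± 0.18 (limma adjusted p = 1.23e-05) in Dicer/Dnmt1 KO.

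Hist1h3e, an H3 gene, was at 8.01 to 8.52 log2 RPM in WT (median 8.21), 7.68, 7.56, 7.07 and 7.20 in Dnmt1 KO, and 7.55, 7.66, 7.43 and 7.35 in Dicer/Dnmt1 KO. No knockout library reached the WT range. Its log2 fold change was -0.89 ± 0.12 in Dnmt1 KO (limma adjusted p = 1.9e-05) and -0.76 ± 0.12 in Dicer/Dnmt1 KO (limma adjusted p = 4e-05).

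Among the H2B genes that fell most in Dnmt1 KO, Hist1h2bb was at 4.96 to 6.47 log2 RPM in WT (median 5.61), 5.31, 5.15, 4.32 and 4.54 in Dnmt1 KO, and 4.38, 4.46, 4.88 and 4.78 in Dicer/Dnmt1 KO. Here Dnmt1 KO number 1 lay inside the WT range and number 2 below it. Hist1h2bc was at 4.81 to 5.51 in WT and at 4.64, 4.70, 4.03 and 4.12 in Dnmt1 KO, without overlap. The log2 fold change in Dnmt1 KO was -0.89 ± 0.24 for Hist1h2bb (limma adjusted p = 0.00633) and -0.85 ± 0.14 for Hist1h2bc (limma adjusted p = 0.00011). Hist1h2br fell by 0.94 ± 0.15 on the log2 scale (limma adjusted p = 8.54e-05), but no window of its transcript is unique in the genome.

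The H4 gene Hist1h4i was also among those that fell most, with a log2 fold change of -0.87 (limma adjusted p = 0.000527). Of the 2 most abundant members of each class per kilobase, the H4 genes Hist1h4k and Hist1h4d had log2 fold changes of -0.70 and -0.69 in Dnmt1 KO, and the H2A genes Hist1h2ao and Hist1h2ak of -0.84 and -0.72, all past the limma threshold. The H2B genes Hist1h2bm and Hist1h2bn fell by 0.54 and 0.45 on the log2 scale (limma adjusted p = 0.025 and 0.0126), and the H3 gene Hist1h3g by 0.57 (limma adjusted p = 0.003). Of the H1 genes, Hist1h1a had a change of -0.36 (limma adjusted p = 0.0475) and Hist1h1b of -0.37 (limma adjusted p = 0.0653), so only the former passed. Without WT number 4, Hist1h2bm and Hist1h1a no longer passed (limma adjusted p = 0.0538 and 0.102).

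**Figure D2:**
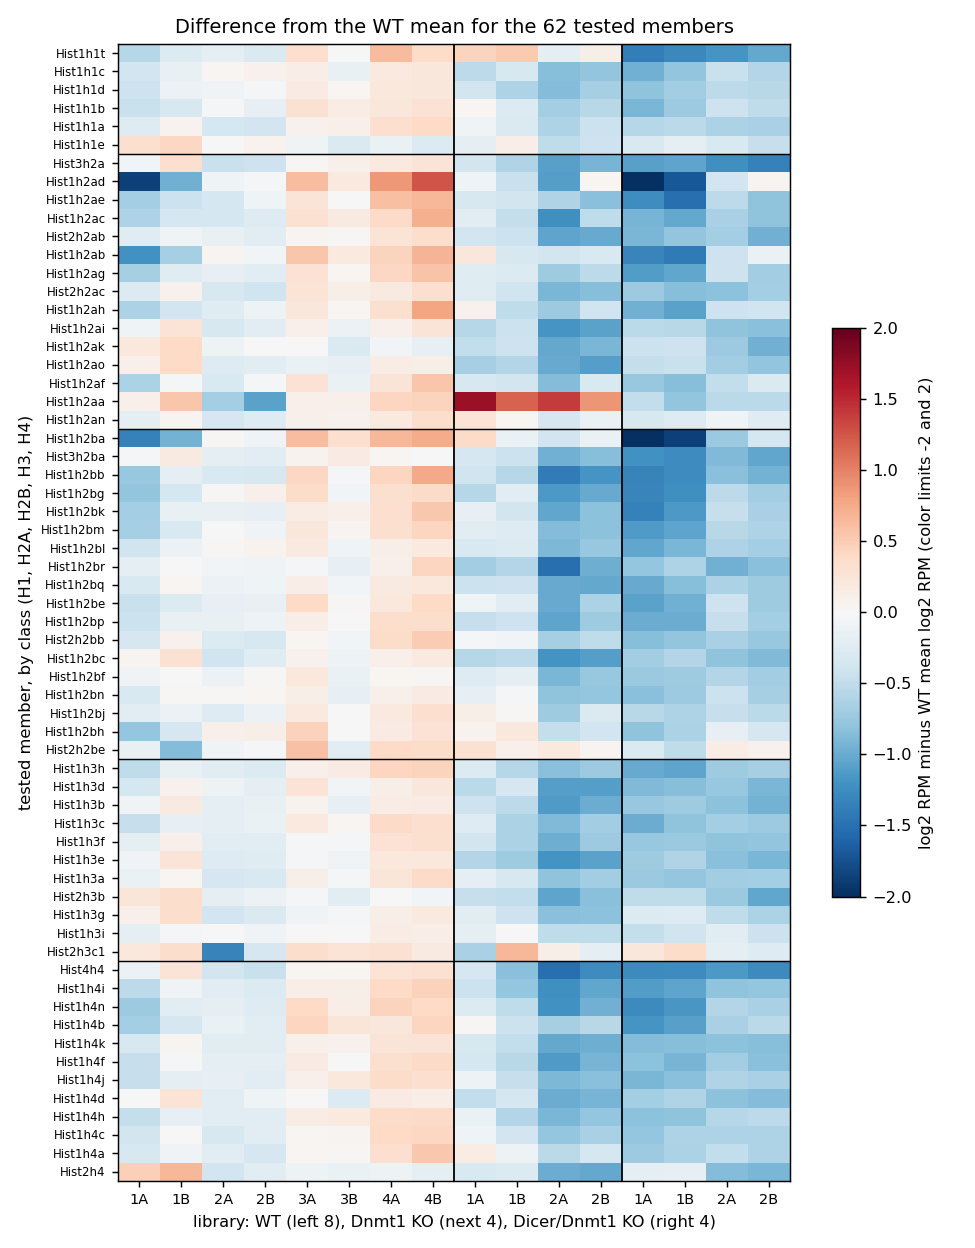
Log2 RPM of each of the 62 tested members (rows, ordered by class and then by the change in Dicer/Dnmt1 KO) minus its WT mean, in the 16 libraries (columns, WT 1A to 4B, then Dnmt1 KO, then Dicer/Dnmt1 KO). Blue is below and red above the WT mean, and the strongest red in the Dnmt1 KO columns belongs to Hist1h2aa (log2 RPM of 2.20 to 3.06 beside a WT mean of 1.33).

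The comparison of Dicer/Dnmt1 KO with WT, which adds the loss of the enzyme that makes microRNAs, showed falls in more members. By limma, 57 of 62 tested members (91.9%) fell and none rose, beside 30.1% of all tested genes that fell and 31.9% that rose. At an unadjusted p under 0.05 no member rose either, whereas with a length trend removed from every library 1 did. The median log2 fold change was -0.77, beside 0.02 over all tested genes. Every Dicer/Dnmt1 KO library was below every WT library in 40 members (18.9% of all tested genes met this). By 2-fold or more, 7 of 62 members fell, beside 3.33% of all tested genes. Without WT number 4, 55 members fell (beside 30.3% of all tested genes) and the members' median was -0.68.

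All 12 tested H4 genes fell in Dicer/Dnmt1 KO (median log2 fold change -0.78), as did all 6 H1 genes (-0.65), 17 of 18 H2B genes (-0.79), 10 of 11 H3 genes (-0.76) and 12 of 15 H2A genes (-0.77). The 5 members that did not pass, chosen here after their values were seen, were Hist2h2be (log2 fold change -0.14), Hist2h3c1 (0.04), Hist1h2an (-0.23), Hist1h2ad (-1.18, from 6 of 8 WT libraries above 1 RPM) and Hist1h2aa (-0.59, limma adjusted p = 0.052).

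Both Hist3 genes were among those that fell most. Hist3h2a, an H2A gene on chromosome 11, was at 6.35 to 7.12 log2 RPM in WT (median 6.85), 6.42, 6.19, 5.71 and 5.86 in Dnmt1 KO, and 5.70, 5.74, 5.56 and 5.44 in Dicer/Dnmt1 KO. The other Hist3 gene, Hist3h2ba, an H2B gene on the same chromosome, was at 4.27 to 4.67 in WT (median 4.50), 4.14, 4.05, 3.53 and 3.64 in Dnmt1 KO, and 3.27, 3.23, 3.60 and 3.44 in Dicer/Dnmt1 KO. In both genes each Dicer/Dnmt1 KO library lay below the whole WT range. The log2 fold change in Dicer/Dnmt1 KO was -1.18 ± 0.15 for Hist3h2a (limma adjusted p = 3.39e-06) and -1.10 ± 0.12 for Hist3h2ba (limma adjusted p = 4.57e-07).

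Hist1h2bb changed by -1.09 ± 0.24 in Dicer/Dnmt1 KO (limma adjusted p = 0.000748). Hist1h4i and Hist1h2bc, named above for their fall in Dnmt1 KO, changed here by -0.94 and -0.74. Of the most abundant members of each class, Hist1h4k and Hist1h4d had log2 fold changes of -0.85 and -0.74, Hist1h2bm of -0.84, Hist1h2bn of -0.67, Hist1h1b of -0.64, Hist1h2ak of -0.63, Hist1h2ao and Hist1h1a of -0.60, and Hist1h3g of -0.42, and all of these passed the limma threshold.

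**Figure D3:**
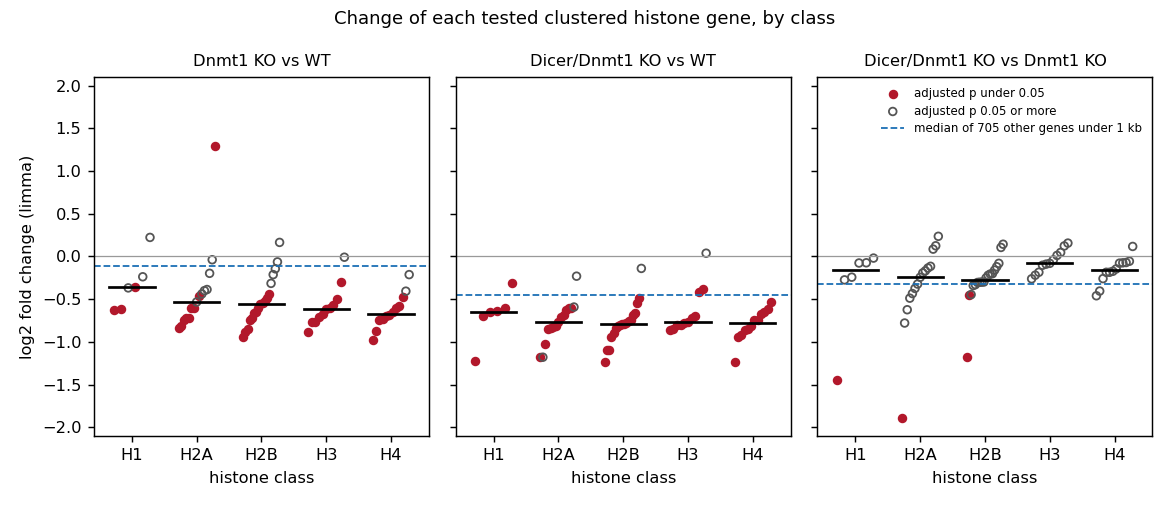
Log2 fold change by limma (y axis) of each of the 62 tested members, by histone class (x axis), in the 3 comparisons. Filled points passed an adjusted p under 0.05, black lines are class medians (-0.36 to -0.67 in Dnmt1 KO and -0.65 to -0.79 in Dicer/Dnmt1 KO against WT), and the dashed line is the median of 705 other tested genes under 1 kb.

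Transcript length moved with these results. The median length was 530 bases for the 67 members and 3137 bases for all tested genes, and Spearman's correlation across genes between length and a library's deviation from the mean of all libraries ranged from 0.31 to 0.37 in Dicer/Dnmt1 KO, from -0.30 to 0.15 in Dnmt1 KO and from -0.51 to 0.21 in WT. Of 705 other tested genes under 1 kb, 413 (58.6%) fell in Dicer/Dnmt1 KO with a median log2 fold change of -0.45, and 133 (18.9%) fell in Dnmt1 KO with a median of -0.12. Relative to these short genes the members deviated upwards in all 8 WT libraries (by 0.09 to 0.28) and downwards in all 8 knockout libraries, with values from -0.44 to -0.15 in Dnmt1 KO and from -0.23 to -0.07 in Dicer/Dnmt1 KO. With the length trend removed from every library, the members' median was -0.54 with 50 lower in Dnmt1 KO and -0.43 with 44 lower in Dicer/Dnmt1 KO. This correction also moved all tested genes, with a shift of their median by -0.10 and -0.12, to 28.7% lower and 18.7% higher in Dnmt1 KO and 38.4% lower and 24.4% higher in Dicer/Dnmt1 KO. The 14 tested members of 1 kb or more had medians of -0.64 and -0.77, beside -0.57 and -0.77 for the 48 shorter members.

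**Figure D4:**
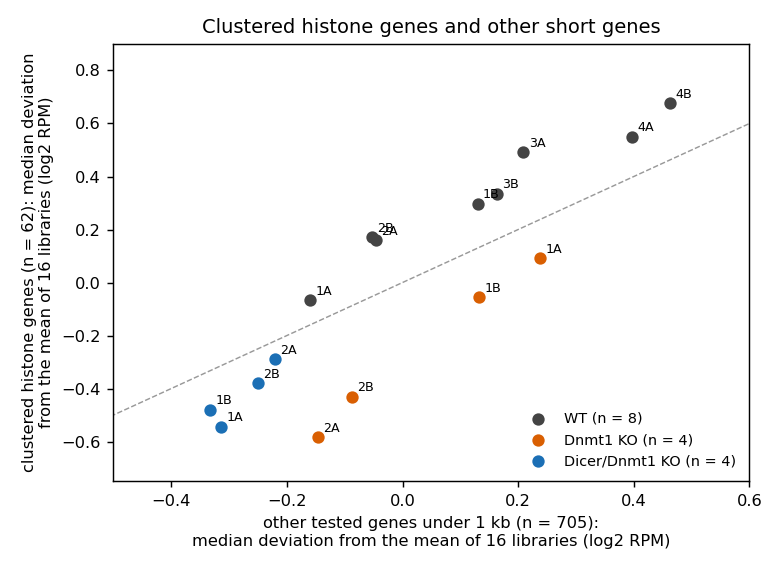
Median deviation from the mean of the 16 libraries, in log2 RPM, of the 62 tested clustered histone genes (y axis) and of the 705 other tested genes under 1 kb (x axis), 1 point per library. The dashed line marks equal values, with all 8 WT libraries above it (by 0.09 to 0.28) and all 8 knockout libraries below it.

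The values within a number were less even for Dnmt1 KO than for Dicer/Dnmt1 KO. The members' median difference from the WT libraries of the same number was -0.09 for Dnmt1 KO number 1, with 37 of 62 members below 0, and -0.65 for number 2, with 57 of 62 below 0. For Dicer/Dnmt1 KO it was -0.69 and -0.47, with 60 and 58 members below 0. When libraries A and B of each number were averaged to 1 value, 22 members fell in Dnmt1 KO, beside 6.74% of all tested genes. The double knockout then had 49 that fell, beside 18.2% of all tested genes.

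Members whose sequence is unique moved like those whose sequence is not. The 20 tested members with at least 90% of windows at 1 place had medians of -0.60 (Dnmt1 KO) and -0.75 (Dicer/Dnmt1 KO), and the 18 with under 50% had -0.58 and -0.80. The 54 tested members with a stem-loop match had medians of -0.60 and -0.77 and the 8 without one -0.44 and -0.69, and these differences were not tested.

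In 12 pairs, an H2A and an H2B gene start within 500 bases of each other and point apart, so that they share the stretch between them. Both genes were tested in 11 pairs, and both fell in 4 of these in Dnmt1 KO and in 7 of them in Dicer/Dnmt1 KO. Taken singly, 71.0% and 91.9% of the tested members fell, beside 17.5% and 30.1% of all tested genes. Whether the genes of a pair moved together more than other members was not tested. For example, Hist1h2ak and Hist1h2bn, 216 bases apart, had log2 fold changes of -0.72 and -0.45 in Dnmt1 KO and -0.63 and -0.67 in Dicer/Dnmt1 KO. The pair furthest apart in Dnmt1 KO was Hist1h2ba and Hist1h2aa (306 bases), at -0.06 and 1.30.

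The direct comparison of Dicer/Dnmt1 KO with Dnmt1 KO asks how these genes stand when Dicer is lost as well. The study's methods derive the Dicer knockouts from single-cell colonies, and the labels do not name the colony of a library. Dicer loss and colony therefore cannot be told apart, here or against WT. By limma 4 of 62 members (6.45%) fell and none rose (none at an unadjusted p under 0.05 either), beside 19.4% of all tested genes that fell and 16.9% that rose, and every Dicer/Dnmt1 KO library was below every Dnmt1 KO library in 2 members beside 22.3% of all tested genes. The share of members that passed was thus below that of all genes. The members' median was -0.19, and within numbers it was -0.51 for number 1 and 0.16 for number 2. Once the length trend was removed, the median turned to 0.13 with 12 of 62 members higher, beside 16.8% of all tested genes. The number that fell ranged from 2 without Dnmt1 KO 1A or 1B to 7 without WT 4B and 8 without Dnmt1 KO 2A, so it rests on single libraries. In that order, the shares of all tested genes that fell were 14.6%, 15.9%, 21.3% and 18.5%. The 705 other genes under 1 kb had a median of -0.32 in this comparison.

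Of the 4 members that fell here, 3 were the testis-type genes, which are best known from male germ cells. Hist1h2aa, an H2A gene (chr13:24026331-24026720, NCBIM37), was at 0.26 to 1.88 log2 RPM in WT (median 1.43), 3.06, 2.50, 2.72 and 2.20 in Dnmt1 KO, and 0.83, 0.53, 0.79 and 0.78 in Dicer/Dnmt1 KO. It was the only member of 62 higher in every Dnmt1 KO library than in every WT library, which 1906 of all 12892 tested genes were. Its Dicer/Dnmt1 KO libraries lay inside the WT range. The log2 fold change was 1.30 ± 0.26 in Dnmt1 KO against WT (2.46-fold, limma adjusted p = 0.000592) and -1.89 ± 0.29 in Dicer/Dnmt1 KO against Dnmt1 KO (3.70-fold lower, limma adjusted p = 0.000108). These values rest on 152 to 274 reads per Dnmt1 KO library, 51 to 156 in WT and 46 to 66 in Dicer/Dnmt1 KO, and 100% of the windows of its transcript occur at 1 place. With only the letter B libraries, neither call was made (limma adjusted p = 0.118 and 0.0572).

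Hist1h1t, an H1 gene (chr13:23787680-23788588, NCBIM37), was at 2.40 to 3.59 log2 RPM in WT (median 2.87), 3.41, 3.48, 2.78 and 3.07 in Dnmt1 KO, and 1.58, 1.67, 1.78 and 1.93 in Dicer/Dnmt1 KO. Its Dicer/Dnmt1 KO libraries lay below both other groups, and these overlapped. The log2 fold change was -1.22 ± 0.19 in Dicer/Dnmt1 KO against WT (limma adjusted p = 3.28e-05), -1.45 ± 0.22 against Dnmt1 KO (limma adjusted p = 8.77e-05), and 0.22 ± 0.19 in Dnmt1 KO against WT (limma adjusted p = 0.369).

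Hist1h2ba, the H2B gene that starts 306 bases from Hist1h2aa on the other strand, was at 1.94 to 4.03 log2 RPM in WT (median 3.47), 3.67, 3.15, 2.90 and 3.16 in Dnmt1 KO, and 1.30, 1.42, 2.54 and 2.93 in Dicer/Dnmt1 KO. All 3 groups overlapped, and Dicer/Dnmt1 KO number 2 stood well above number 1. Its log2 fold change was -1.24 ± 0.37 in Dicer/Dnmt1 KO against WT (limma adjusted p = 0.00833) and -1.17 ± 0.43 against Dnmt1 KO (limma adjusted p = 0.0413). The call against WT was lost with only WT numbers 1 and 2 (limma adjusted p = 0.127) and with A and B averaged (limma adjusted p = 0.0718). The call against Dnmt1 KO was lost with the length trend removed (limma adjusted p = 0.0669), and also without Dnmt1 KO 1A, 1B or 2B or Dicer/Dnmt1 KO 1A or 1B (limma adjusted p = 0.0677 to 0.135).

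The remaining member that fell, Hist3h2ba, had a log2 fold change of -0.45 ± 0.13 (limma adjusted p = 0.0142), a call that was lost without Dnmt1 KO 1A or 1B and with the length trend removed.

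**Figure D5:**
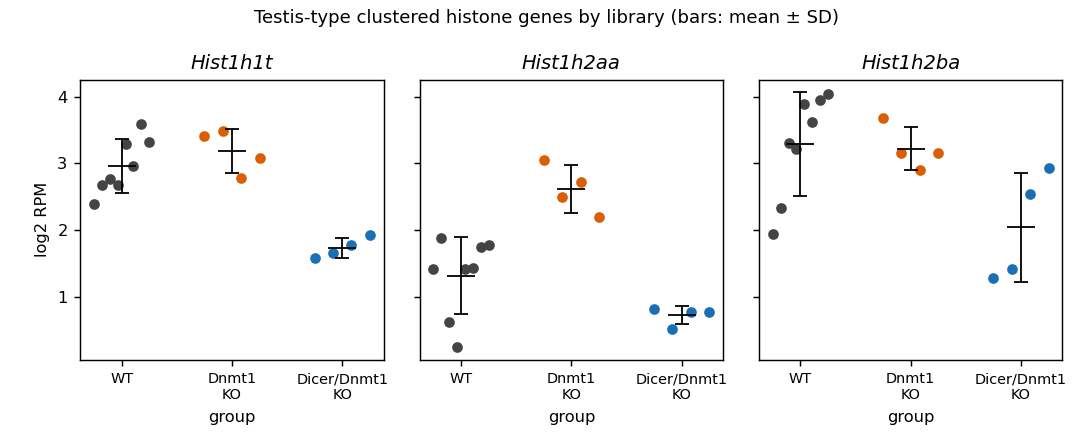
Log2 RPM (y axis) of the testis-type genes Hist1h1t, Hist1h2aa and Hist1h2ba in each library of the 3 groups (x axis, 8, 4 and 4 libraries), with the mean ± SD. The Dnmt1 KO libraries of Hist1h2aa (2.20 to 3.06) lie above all others of that gene, and the Dicer/Dnmt1 KO libraries of Hist1h1t (1.58 to 1.93) lie below all others of that gene.

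Genes that act on histone mRNAs were listed by role, and each count below is to be read beside all tested genes, of which 23.5% rose and 17.5% fell in Dnmt1 KO and 31.9% rose and 30.1% fell in Dicer/Dnmt1 KO against WT. Of 28 tested genes for histone pre-mRNA processing and decay, 2 rose (7.14%) and 3 fell (10.7%) in Dnmt1 KO, and 1 rose (3.57%) and 15 fell (53.6%) in Dicer/Dnmt1 KO (median log2 fold change -0.23). Slbp was at 5.51 to 6.33 log2 RPM in WT, 6.10, 6.03, 5.87 and 5.94 in Dnmt1 KO, and 5.28, 5.29, 5.55 and 5.49 in Dicer/Dnmt1 KO. Its change was 0.03 ± 0.12 in Dnmt1 KO (limma adjusted p = 0.859). Dicer/Dnmt1 KO differed from WT by -0.55 ± 0.12 (limma adjusted p = 0.000729) and from Dnmt1 KO by -0.58 ± 0.14 (limma adjusted p = 0.00344). Lsm10, a subunit of the U7 particle that directs the 3' end cut, changed by -0.52 ± 0.13 in Dicer/Dnmt1 KO against WT (limma adjusted p = 0.00177) and Zfp473, a partner of U7, by -0.24 ± 0.08 (limma adjusted p = 0.0158). Lsm11 (-0.10), Casp8ap2 (0.01), the exonuclease gene Eri1 (-0.13) and the RNA helicase gene Upf1 (0.06) did not pass in that comparison, and none of these 6 passed in Dnmt1 KO.

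Among 14 tested regulators of histone gene transcription, 1 rose (7.14%) and 2 fell (14.3%) in Dnmt1 KO, and 4 rose (28.6%) and 2 fell (14.3%) in Dicer/Dnmt1 KO, none of these shares being above that of all tested genes. Npat, the coactivator of histone genes that cyclin E with CDK2 phosphorylates, changed by -0.01 ± 0.09 in Dnmt1 KO (limma adjusted p = 0.937) and, relative to WT again, by 0.08 ± 0.09 when both genes were lost (limma adjusted p = 0.433). With the length trend removed, the latter turned to -0.28 (limma adjusted p = 0.00149), and that of Casp8ap2 to -0.40 (limma adjusted p = 0.00459). Ccne1, a gene of cyclin E, was at 6.22 to 6.45 log2 RPM in WT, 6.98, 6.89, 6.97 and 6.88 in Dnmt1 KO, and 6.40, 6.28, 6.22 and 6.22 in Dicer/Dnmt1 KO, and its Dnmt1 KO libraries lay above all others. It changed by 0.54 ± 0.06 in Dnmt1 KO against WT (limma adjusted p = 2.33e-06). Ccne2, the other cyclin E gene, was at 3.46 to 4.08 in WT and 4.81, 4.49, 4.72 and 4.82 in Dicer/Dnmt1 KO, a change of 0.98 ± 0.11 (limma adjusted p = 1.3e-06).

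Cell cycle lists were measured beside the histone genes. Of 30 tested genes for DNA replication and S phase, 7 rose (23.3%, beside 23.5% of all tested genes) and none fell in Dnmt1 KO, and none rose and 12 fell (40.0%, beside 30.1%) in Dicer/Dnmt1 KO, with median log2 fold changes of 0.05 and -0.15. Their summed level was 2464 to 2880 RPM in WT, 2820 to 3013 RPM in Dnmt1 KO and 2398 to 2417 RPM in Dicer/Dnmt1 KO. Of 18 tested genes for G2 and M phase, 10 fell in Dnmt1 KO (55.6%), 15 fell in the double knockout (83.3%) and none rose in either, with summed levels of 2991 to 3388 RPM in WT, 2331 to 2774 RPM in Dnmt1 KO and 2135 to 2174 RPM in Dicer/Dnmt1 KO. Of 13 tested genes that act as brakes on G1, 9 rose (69.2%) and 2 fell in Dnmt1 KO, and 12 rose (92.3%) and 1 fell in Dicer/Dnmt1 KO. Among these, Cdkn1a, which encodes the cyclin-dependent kinase inhibitor p21, was at 4.01 to 4.31 log2 RPM in WT, 4.90, 4.92, 4.85 and 4.76 in Dnmt1 KO, and 6.02, 6.14, 5.92 and 5.77 in Dicer/Dnmt1 KO, with no overlap between groups. Lats2, a kinase gene, changed by 0.27 ± 0.11 and 0.82 ± 0.11 (limma adjusted p = 0.046 and 4.15e-06), the former not passing without WT number 4 (limma adjusted p = 0.0978). The part of cell cycle state in the histone results was not tested.

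Histone variant genes outside the clusters, most of which are expressed throughout the cell cycle from polyadenylated mRNAs, were set beside the clustered genes. Of 10 tested genes, 1 rose and 4 fell (40.0%) in Dnmt1 KO (median log2 fold change -0.33), and 1 rose and 6 fell (60.0%) in Dicer/Dnmt1 KO (median -0.41). H2afx, which encodes H2A.X and is an exception, since it is also known to give an mRNA that ends in the histone stem-loop, was at 6.88 to 7.01 log2 RPM in WT, 6.77, 6.61, 6.39 and 6.43 in Dnmt1 KO, and 6.14, 6.31, 6.22 and 6.13 in Dicer/Dnmt1 KO, a stepwise order without overlap between groups. It changed by -0.41 ± 0.07 and -0.76 ± 0.07 against WT (limma adjusted p = 0.000183 and 8.53e-08). H2afz, which encodes H2A.Z, changed by -0.17 ± 0.15 and -0.83 ± 0.15 (limma adjusted p = 0.395 and 0.000169). H3f3a and H3f3b both encode H3.3, and their changes were -0.39 and 0.09 in Dnmt1 KO (limma adjusted p = 0.0319, or 0.0625 without WT number 4, and 0.403) and -0.55 and -0.27 in Dicer/Dnmt1 KO (limma adjusted p = 0.00264 and 0.00836). H1f0 was not tested. Of 17 tested histone chaperones, 3 rose and 3 fell in Dnmt1 KO (17.6% each), and 3 rose (17.6%) and 8 fell (47.1%) in Dicer/Dnmt1 KO.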

How the data were processed

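The authors made stranded libraries from total RNA depleted of ribosomal RNA and sequenced both ends over 100 bases. Reads were mapped with TopHat to the NCBIM37 genome, those with a mapping quality below 20 were dropped, and the submitters' processing notes name Trim Galore 0.3.5 and TopHat2 2.0.11. The deposited values are log2 RPM per gene from SeqMonk, with a gene without reads written as 0.9 read. Undoing the scale gave whole reads, within 0.01 read, for 99.8% to 99.96% of values. The SE after a log2 fold change comes from the limma fit and reflects the spread between libraries. In the figure of the testis-type genes, ± is the SD between the libraries of a group. The floor in RPM is a fixed number of reads scaled to the size of each library and measures no spread. A further 35 value columns matched no sample used here and were left out.

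The members and gene lists were chosen with earlier results of these data known. Coordinates (NCBIM37) and lengths came from GENCODE M1, in which all 67 members were found. Genes above 1 RPM in at least 4 of 16 libraries (12892) were fitted with limma 3.58.1 in R 4.3.3, as a mean per group with an intensity trend, and BH adjusted over all tested genes. On simulated data with 200 genes changed by 1 on the log2 scale between Dnmt1 KO and WT, 92.5% were recovered among 12892 genes and 7.04% of calls were false. The genes named are the 6 members that rose and the 6 that fell most in each comparison among those past the threshold, the 2 most abundant per kilobase of each class, the testis-type members, fixed genes of the pathways, and Dnmt1 and Dicer1, with exceptions stated. Counts are read against all tested genes, with no test over the list. Alternatives covered the libraries used, the filter, scaling, pseudocount, block, length trend and threshold.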

Additional observations from a re-analysis of the deposited data

Results flagged for a closer look

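Within groups of 4 or 8 libraries, 117 sets of values (the named genes and the summed level of the members, in 3 groups) were searched for a library far from the others by Dixon's criterion, which chance meets in about 1 of 20 sets, and 3 met it. Hist4h4 was at 4.85 log2 RPM in Dicer/Dnmt1 KO 2A beside 4.72 to 4.73 in the other 3 libraries. Npat was at 5.63 log2 RPM in Dicer/Dnmt1 KO 2B beside 5.78 to 5.79. Ccne1 was at 6.22 log2 RPM in WT 2B, while its other 7 WT libraries ranged from 6.34 to 6.45.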

How the results depend on the processing

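All 3 comparisons kept the sign of the members' median under every alternative run, except between the knockouts. There the median, -0.19, turned to 0.13 with the length trend removed, whether the trend was taken from all genes or from the other genes only. Then 12 members were higher and 2 lower, beside 16.8% of all tested genes higher and 21.2% to 21.3% lower. For Dicer/Dnmt1 KO against WT these 2 corrections gave medians of -0.43 and -0.46 and 1 member higher (beside 24.4% and 24.3% of all tested genes). They also turned Casp8ap2 and Npat (-0.40 and -0.28, Dicer/Dnmt1 KO against WT) and Hist1h4k and Hist1h4i (0.26 and 0.26 with the trend of all genes, 0.27 and 0.27 with that of the other genes, Dicer/Dnmt1 KO against Dnmt1 KO). The cause was not tested.

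In this paragraph, the share of all tested genes stands in brackets after a count of members. In Dnmt1 KO against WT, where 44 members fell, 22 fell with A and B averaged (6.74%) and 11 with letter A only (5.41%). With letter B only 22 fell (4.73%) and 0 rose (7.76%). By at least 2-fold 0 fell (1.92%), and 2 rose with only WT numbers 1 and 2 (25.2%). In Dicer/Dnmt1 KO against WT, where 57 fell, 29 fell with letter A only (12.9%) and 7 by at least 2-fold (3.33%). Averaging and single letters leave fewer values in the fit. Between the knockouts, where 4 fell in Dicer/Dnmt1 KO, 2 fell with A and B averaged, 2 with letter A only, 1 with letter B only, 8 with only WT numbers 1 and 2, 9 with only WT numbers 3 and 4, 7 without WT number 4 and 8 with only the 2 groups compared. Leaving out each library in turn gave 32 to 48, 54 to 57 and 2 to 8 members lower, with medians of -0.71 to -0.49, -0.81 to -0.72 and -0.29 to -0.07. The shares of all tested genes that were lower were then 12.5% to 18.8%, 26.8% to 31.3% and 14.6% to 21.3%.

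The numbers in the labels do not establish pairs. Deviations of same-numbered libraries correlated across 12892 genes at -0.018 between WT and Dnmt1 KO, 0.417 between WT and Dicer/Dnmt1 KO and -0.221 between the knockouts. With the number as a replicate block, 34 members fell and 2 rose in Dnmt1 KO against WT (22.2% and 28.5% of all tested genes). In Dicer/Dnmt1 KO against WT 53 fell and 0 rose (29.5% and 31.2%), and between the knockouts 13 fell and 1 rose (27.5% and 24.4%). With the block numbers crossed between the knockouts, an alternative chosen after seeing the data, 25 fell, beside 29.0% of all tested genes.

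Of 3800 values of 114 named results under the alternatives, 3503 kept their direction and side of the threshold, 219 lost the call, 70 gained one and 8 turned. Limma voom on the recovered reads, also chosen after seeing the data, gave 44, 57 and 3 members lower. The shares of all tested genes that were lower were 17.2%, 29.8% and 19.2%. The 2 planned count models were not run because the deposited values are on a log2 scale. Hist1h2ad and the 5 untested members rest on few reads, and for 3 of the latter no window is unique in the genome.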
